A study of Mus musculus with 11 samples.

Results

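The Nduf genes encode the nuclear subunits and assembly factors of respiratory complex I, the NADH dehydrogenase of the inner mitochondrial membrane. They were taken as every gene whose probe sets carry a single annotated symbol beginning with Nduf, each represented by its brightest probe set over all arrays. This gave 43 of the 19938 genes named on the array. Expression had been measured with Affymetrix Mouse Gene 1.0 ST arrays in punches enriched for the shell of the nucleus accumbens, the ventral part of the striatum, from behaviourally naive male mice of 4 to 5 months. There were 6 wild-type (WT) mice and 5 littermate RARβ-null mutants, in which Rarb, coding for a nuclear receptor of retinoic acid, is mutated; whether the mutation is confined to some cells is not said in the labels. Mutants and controls came from heterozygous crosses on a mixed background of C57BL/6J and 129SvEms/j, so alleles linked to Rarb may differ between them. None of the 43 genes lies on the chromosome of Rarb. Levels are log2 values after robust multi-array analysis, and differences are Rarb-null minus WT, each followed by its standard error (SE) from limma. Each array was taken as 1 mouse, as the labels count them.

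Complex I takes electrons from NADH, passes them along a flavin and a chain of iron-sulfur clusters in an arm that reaches into the matrix, and hands them to ubiquinone. The energy released drives protons across the membrane through a second arm whose central subunits are encoded by mitochondrial DNA. A small set of nuclear core subunits carries the flavin and the clusters, many accessory subunits stabilise both arms, and assembly factors help to build the enzyme without staying in it. Neurons depend on this enzyme for much of their ATP, and striatal projection neurons are known to be sensitive to complex I and complex II inhibitors. Subunits of other respiratory complexes and regulators of mitochondrial gene expression were set beside the Nduf genes.

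The labels were checked first. Rarb read 11.70 to 11.81 in the 6 WT arrays and 9.72 to 10.01 in the 5 arrays labelled null (difference -1.86, SE 0.047, limma Benjamini-Hochberg adjusted p = 4.44e-11), so no array went against its label. The 9 striatal projection neuron markers tested all lay at or above the 91.6th percentile of all genes, as the labelled tissue requires. Their mean level was 12.07 to 12.14 in WT and 11.81 to 11.93 in Rarb-null arrays. At a limma Benjamini-Hochberg adjusted p of at most 0.05, 6 of the 9 were lower and 0 higher. Other marker lists moved with genotype too. The mean of 7 cortical excitatory neuron markers was 8.28 to 8.91 in WT and 8.92 to 9.41 in Rarb-null arrays, with 4 of the 7 higher at the threshold and 0 lower. For 10 oligodendrocyte markers the ranges were 9.19 to 9.45 and 9.0 to 9.25, with 4 lower and 0 higher, and for 8 astrocyte markers 9.89 to 9.98 and 9.81 to 9.89, with 3 lower and 1 higher. Of 7 microglial and 6 endothelial markers 0 were called, and of 2 choroid plexus markers 1 was lower and 1 higher. Over all genes tested, 12% were lower and 7.56% higher at the same threshold. Fits with the cortical or the oligodendrocyte level as a covariate are given with the results. Both levels differ with genotype, the cortical one without overlap, so these fits can lose precision. A call lost in them does not by itself show a dependence on cell types. The part of the other shifts was not tested. In tissue punches, fewer cells of a type and less RNA per cell cannot be told apart.

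Complex I genes stood slightly lower in the Rarb-null accumbens, with few single genes past the threshold. Of the 43 genes, 42 had a mean above the 40th percentile of all genes and were tested; Ndufa4l2, a paralog of Ndufa4 known for induction by hypoxia, was too dim (6.78 ± 0.072, SD, n = 6 WT; 6.76 ± 0.12, n = 5 Rarb-null). With limma and a Benjamini-Hochberg adjusted p of at most 0.05, taken over 11963 genes, 7 of the 42 fell, 0 rose and 35 did not pass. The 7 were Ndufs1, Ndufa2, Ndufa1, Ndufab1, Ndufa4, Ndufaf4 and Ndufaf5. They are 16.7% of the 42, where 12% of all genes tested fell and 7.56% rose (19.6% in either direction), so the share of falls was near the background. Of the 34 nuclear subunits of complex I among them, which leave out Ndufa4 and the assembly factors, 4 fell (11.8%). Every Rarb-null array lay below every WT array for 4 genes (9.52%), against 7.33% of all genes, and above it for 0, against 3.82%. At an unadjusted p under 0.05 there were 13 genes (31.0%), all lower. Of all 11963 genes 35.3% passed in either direction, which is 4220 genes, of which 2546 were lower.

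The direction was more uniform than the calls. The difference was below 0 for 38 of the 42 genes (90.5%), against 57.2% of all genes tested, and the median was -0.063 against -0.017. Differences ran from -0.42 for Ndufs5 to 0.06 for Ndufa3. The 4 genes above 0 were Ndufa3, Ndufs7, Ndufb10 and Ndufb11, none of which passed the test.

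**Figure D1:**
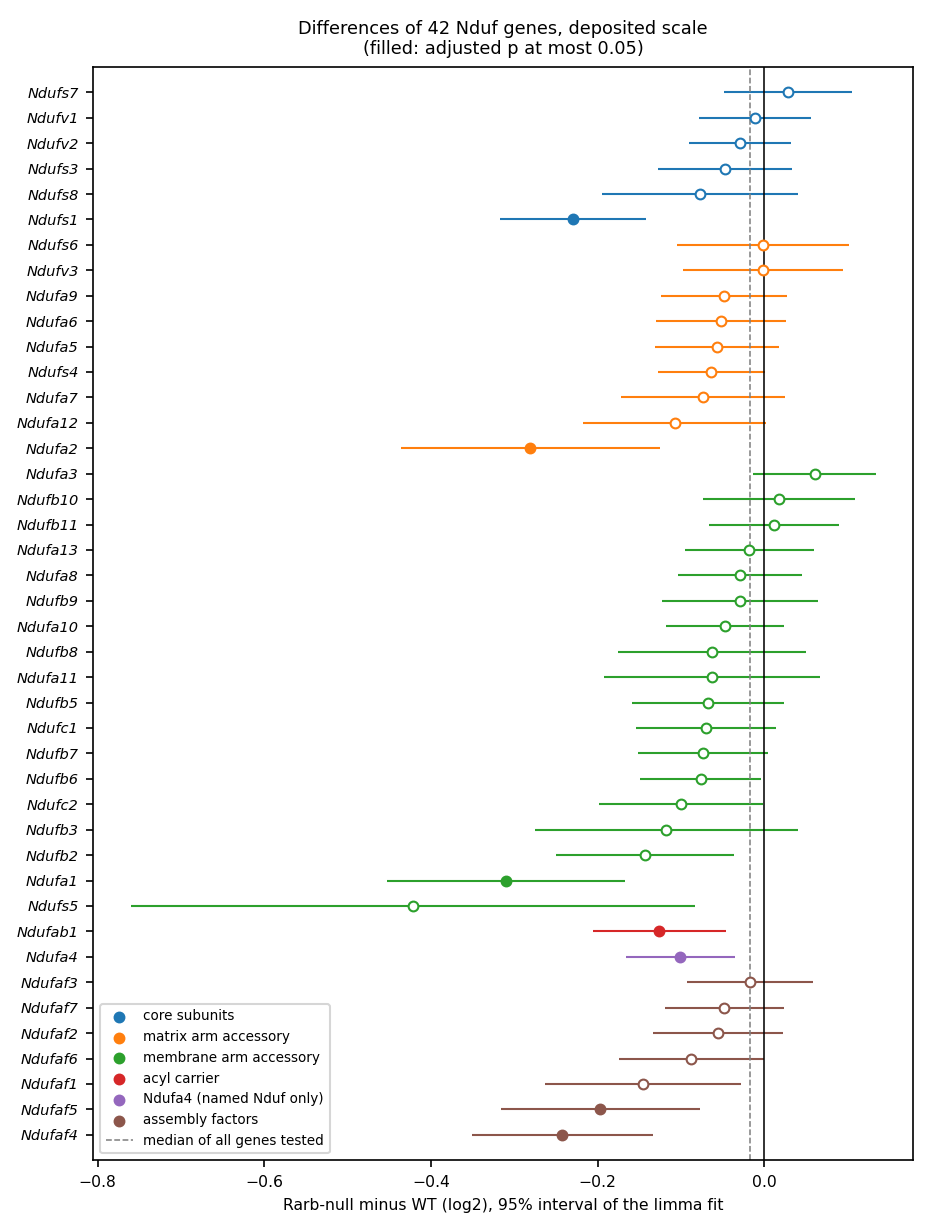
Difference between genotypes (horizontal axis, Rarb-null minus WT, log2) for the 42 tested Nduf genes, grouped by role, with 95% intervals of the limma fit and filled symbols for an adjusted p of at most 0.05. Points for 38 genes lie left of 0, and the 7 filled ones lie between -0.31 and -0.10.

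The scale of the arrays set how large the shift looked. The median over all probe sets was 7.016 to 7.057 in WT and 7.082 to 7.107 in Rarb-null arrays, whereas the median over the genes tested went the other way (8.963 to 8.998 and 8.881 to 8.973). When the median of the tested genes was subtracted from each array, 5 falls and 0 rises were left among the Nduf genes (11.9%, against 7.85% of all genes falling, 14.0% rising and 21.9% either way). Their median was -0.023, and 30 of 42 were below 0 (71.4%, against 40.7% of all genes). The median of all genes was then 0.023. Centring on the median of all probe sets gave 17 falls and 0 rises (40.5%, against 25.7% falling, 4.39% rising and 30.1% either way), a median of -0.109 and 41 of 42 below 0 (97.6%, against 73.9%), with the median of all genes at -0.063. Ndufs1, Ndufa1, Ndufa2, Ndufaf4 and Ndufaf5 fell on all 3 scales, and 25 of the 42 genes were called on none of them.

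The mean level of the 42 genes per array showed the same dependence. On the deposited scale it was 9.998, 10.031, 10.049, 10.058, 10.078 and 10.122 in the WT arrays in ascending order, and 9.914, 9.942, 9.976, 9.999 and 10.019 in the Rarb-null arrays. The lowest WT array, replicate 6, lay below 2 of the Rarb-null arrays, so the groups overlapped. After centring on the tested genes the ranges were 9.981 to 10.086 and 9.965 to 10.02. After centring on all probe sets they were 10.008 to 10.173 and 9.881 to 10.004 and did not overlap. The size of the genotype difference in this mean was thus -0.086, -0.046 or -0.132.

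**Figure D2:**
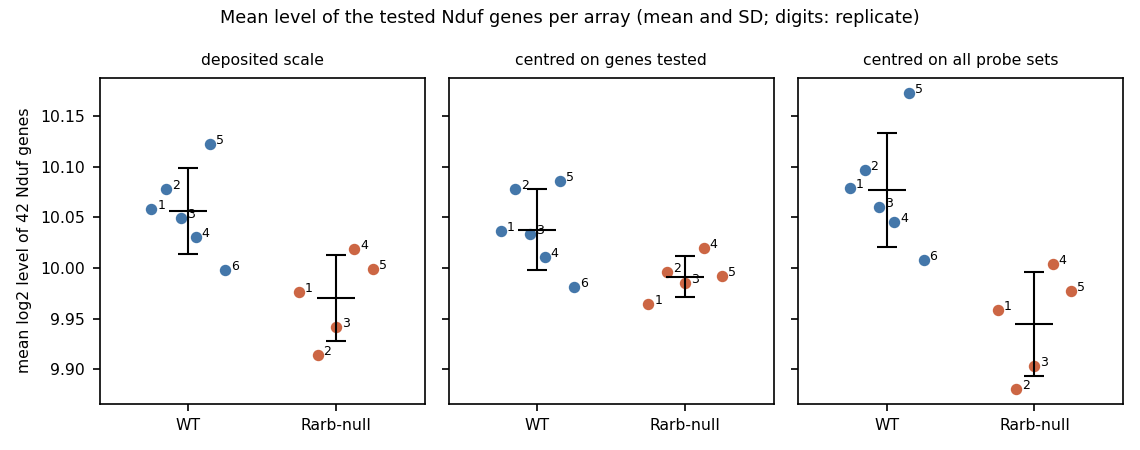
Mean log2 level of the 42 tested Nduf genes in each array (vertical axis) for WT and Rarb-null arrays, on the deposited scale and after 2 ways of centring; bars give the mean and SD, and digits the replicate. The groups overlap on the left (9.998 to 10.122 against 9.914 to 10.019) and in the middle, and part only on the right.

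Level was looked at because many Nduf genes are bright. The genes tested were divided by mean level into 5 groups of nearly equal size. The brightest group held 20 of the 42 Nduf genes, and there the median difference of all genes was -0.016 and that of the Nduf genes -0.048. In the next group down the 8 Nduf genes had a median of -0.117 and all genes -0.029. In the middle group the 6 Nduf genes had -0.074 and all genes -0.038, and in the one below it, with 6 Nduf genes, the values were -0.130 and -0.024. The Nduf median was lower than that of all genes of like level in each of the 5 groups. The calls did not follow this in each group. From the brightest group to the dimmest, 1 of 20, 3 of 8, 2 of 6, 1 of 6 and 0 of 2 Nduf genes fell. The shares of all genes that fell were 12.8%, 13.5%, 15.2%, 12.1% and 6.35%. The dimmest group held only 2 Nduf genes (-0.071, against 0.032 for all genes).

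**Figure D3:**
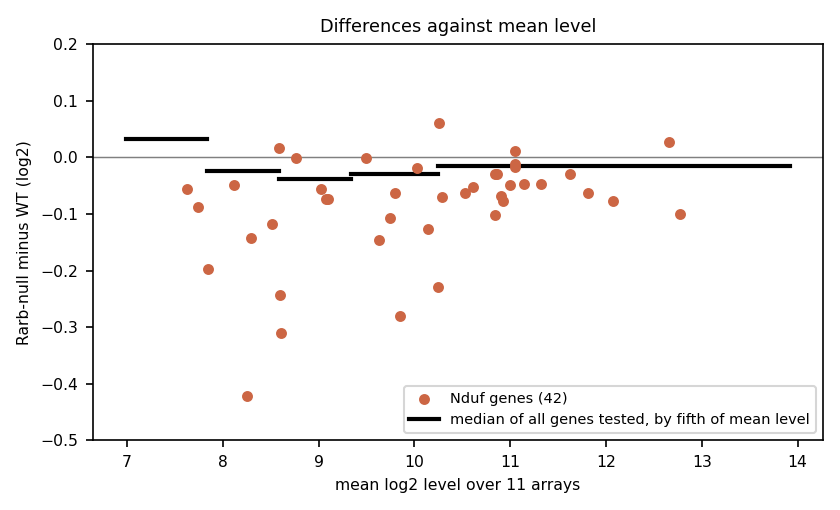
Difference between genotypes (vertical axis, log2) against mean log2 level over 11 arrays for the 42 Nduf genes (points), with the median of all genes tested in each of 5 groups by mean level (bars). Most points lie below the bars, which run between -0.038 and 0.032.

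Of 6 core catalytic subunits tested, 1 fell and 5 had a difference below 0 (median -0.038). Here and for the other roles, 12% of all genes tested fell and 57.2% were below 0 (median -0.017). Ndufs1 encodes the largest core subunit, which holds iron-sulfur clusters near the site of NADH oxidation. It read 10.48, 10.26, 10.30, 10.35, 10.37 and 10.36 in WT replicates 1 to 6 and 10.19, 10.15, 10.04, 10.13 and 10.10 in Rarb-null replicates 1 to 5. Every Rarb-null array lay below every WT array. The difference of -0.23 (SE 0.041), a 1.17-fold reduction, had the smallest p of the Nduf genes (limma Benjamini-Hochberg adjusted p = 0.00176) and kept its call whichever array was left out. The call was lost with the oligodendrocyte covariate (-0.17, adjusted p = 0.0696) and with the cortical one (-0.19, adjusted p = 0.0978).

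The other core subunits did not pass. Ndufv1, which binds NADH and the flavin, gave -0.01 (95% interval -0.08 to 0.06), and its partner Ndufv2, the subunit with a separate iron-sulfur cluster, gave -0.03 (-0.09 to 0.03). Ndufs3 and Ndufs8, in the part of the matrix arm that leads to ubiquinone, gave -0.05 and -0.08. Ndufs3 had 11.26, 11.35 and 11.43 as lowest, median and highest WT value and 11.26, 11.25, 11.28, 11.35 and 11.32 in the Rarb-null arrays. Ndufs8 had 10.83, 10.97 and 11.08 in WT and 10.83, 10.78, 10.91, 10.92 and 10.98 in Rarb-null arrays. Ndufs7, which carries the last cluster before ubiquinone, had 12.55, 12.66 and 12.71 in WT and 12.67, 12.65, 12.66, 12.67 and 12.75 in Rarb-null arrays. All 3 genes overlapped between genotypes. None of the 95% intervals of these 5 core subunits reached a difference as large as that of Ndufs1.

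Among the 9 accessory subunits of the matrix arm 1 fell (11.1%, against 12% of all genes tested), and all 9 had a difference below 0 (median -0.057). Ndufa2, a small subunit with a thioredoxin-like fold bound to Ndufs1, read 9.96, 10.13, 9.92, 10.00, 10.16 and 9.72 in WT and 9.74, 9.57, 9.62, 9.82 and 9.75 in Rarb-null arrays. WT replicate 6 lay among the Rarb-null arrays and the other WT arrays lay above all of them. The difference was -0.28 (SE 0.072, limma Benjamini-Hochberg adjusted p = 0.0168). It passed under all 23 alternative settings, with an adjusted p between 0.00257 and 0.0484. Ndufs6 and Ndufv3 were nearest 0, at -0.0015 and -0.0016.

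For 3 further matrix arm genes, of the 3 scales only the one centred on all probe sets gave a call. On that scale 25.7% of all genes tested were called lower. Ndufs4, whose loss in mice causes a fatal encephalopathy, had 11.80, 11.84 and 11.90 as lowest, median and highest WT value and 11.74, 11.76, 11.75, 11.81 and 11.81 in Rarb-null arrays. Ndufa12 had 9.61, 9.81 and 9.93 in WT and 9.72, 9.69, 9.74, 9.70 and 9.56 in Rarb-null arrays. Ndufa5 had 8.99, 9.04 and 9.17 in WT and 9.01, 9.0, 9.01, 9.02 and 8.95 in Rarb-null arrays. The genotypes overlapped in all 3. Their adjusted p values from limma were 0.145, 0.149 and 0.258 on the deposited scale and 0.0238, 0.0472 and 0.0424 after that centring. Ndufa12 was also called on the deposited scale without WT replicate 6 (-0.14, adjusted p = 0.0337).

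Of 18 accessory subunits of the membrane arm tested, 1 fell (5.56%, against 12% of all genes tested) and 15 had a difference below 0 (median -0.065). Ndufa1, an X-linked gene whose product is needed early in assembly of the membrane arm, read 8.84, 8.70, 8.69, 8.63, 8.94 and 8.69 in WT and 8.38, 8.27, 8.41, 8.59 and 8.55 in Rarb-null arrays. The groups did not overlap, though only 0.04 lay between the lowest WT and the highest Rarb-null array as printed. The difference was -0.31 (SE 0.066, limma Benjamini-Hochberg adjusted p = 0.00609), a 1.24-fold reduction. The call held whichever array was left out and with the cortical covariate (-0.42), and was lost with the oligodendrocyte covariate (-0.28, adjusted p = 0.0945).

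Ndufs5 had the largest difference of all Nduf genes and the widest spread. This small cysteine-rich subunit on the outer face of the membrane arm read 8.16, 8.38, 8.41, 8.67, 8.94 and 8.08 in WT and 8.04, 7.64, 7.90, 8.07 and 8.46 in Rarb-null arrays. The groups overlapped, and the difference of -0.42 (SE 0.157, 95% interval -0.76 to -0.08) did not pass (limma Benjamini-Hochberg adjusted p = 0.0744). It passed with array weights (adjusted p = 0.0243) and with a replicate block (adjusted p = 0.00243). It also passed without WT replicate 6 (adjusted p = 0.0491) or Rarb-null replicate 5 (adjusted p = 0.03). With the oligodendrocyte and cortical covariates it did not (adjusted p = 0.156 and 0.0833), nor under most other settings. A further probe set, annotated to Ndufs5 and its pseudogene together and therefore not counted, averaged 8.17 ± 0.034 (n = 6) in WT and 7.94 ± 0.17 (n = 5) in Rarb-null arrays.

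Other membrane arm genes lay closer together. Ndufb2 had 8.31, 8.35 and 8.45 as lowest, median and highest WT value and 8.28, 8.05, 8.16, 8.33 and 8.29 in Rarb-null arrays (-0.14, SE 0.050, limma Benjamini-Hochberg adjusted p = 0.0591). Ndufc2 had 12.66, 12.81 and 12.96 in WT and 12.70, 12.74, 12.70, 12.71 and 12.77 in Rarb-null arrays. The genotypes overlapped in both genes. Ndufb6 had 12.06, 12.11 and 12.16 in WT and 12.06, 12.02, 12, 12.11 and 11.98 in Rarb-null arrays. Ndufb7 had 9.05, 9.11 and 9.18 in WT and 8.96, 9.04, 9.01, 9.05 and 9.10 in Rarb-null arrays. These 4 genes and Ndufs5 were called only with arrays centred on all probe sets among the 3 scales, where 25.7% of all genes tested were called lower. Ndufb2 was also called with cyclic loess, a replicate block, the oligodendrocyte covariate and without Rarb-null replicate 4. Ndufc2 was also called with the replicate block and without WT replicate 6.

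Ndufb3 (-0.12) read 8.19 and 8.34 in Rarb-null replicates 3 and 2 and 8.42 to 8.67 in the other Rarb-null arrays, which covers the whole WT range of 8.45 to 8.64. Ndufa3 had 10.15, 10.23 and 10.31 as lowest, median and highest WT value and 10.32, 10.24, 10.32, 10.29 and 10.30 in Rarb-null arrays, and its difference of 0.06 (SE 0.034, adjusted p = 0.222) was the highest of the list. Ndufb10 had 8.44, 8.57 and 8.68 in WT and 8.53, 8.58, 8.60, 8.67 and 8.58 in Rarb-null arrays, and Ndufb11 had 10.99, 11.04 and 11.15 and 11.05, 11.03, 11.09, 11.12 and 11.0. The genotypes overlapped in all of these. Where a gene had another probe set, the pair gave like differences, as for Ndufb11 (0.01 and 0.0045), Ndufc1 (-0.07 and -0.06), Ndufs3 (-0.05 and -0.06) and Ndufa11 (-0.06 and -0.03). Probe sets shared by Ndufb4 and its copy Ndufb4b were left out for their double annotation and gave -0.04 and -0.03.

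Ndufab1 encodes the mitochondrial acyl carrier protein, which sits in both arms and also serves fatty acid and lipoic acid synthesis. It read 10.29, 10.14, 10.16, 10.16, 10.29 and 10.16 in WT and 10.11, 10.06, 10.05, 10.07 and 10.08 in Rarb-null arrays, again without overlap. The difference was -0.13 (SE 0.037, limma Benjamini-Hochberg adjusted p = 0.0304). A further probe set gave -0.13. This call ended with arrays centred on the tested genes (-0.09, adjusted p = 0.0923), with quantile normalisation repeated (-0.10, adjusted p = 0.0536) and with cyclic loess (-0.11, adjusted p = 0.0537). With the oligodendrocyte covariate the difference was -0.065 (adjusted p = 0.412) and with the cortical one -0.15 (adjusted p = 0.168). It also ended when WT mouse 1 or 5, or Rarb-null mouse 2, 3 or 4, was left out (highest adjusted p 0.0735).

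Ndufa4 was named as a complex I subunit and is now placed in cytochrome c oxidase. It read 10.86, 10.94, 10.91, 10.89, 10.92 and 10.83 in WT and 10.78, 10.80, 10.76, 10.84 and 10.77 in Rarb-null arrays, where 1 Rarb-null array passed the lowest WT array. The difference was -0.10 (SE 0.030, limma Benjamini-Hochberg adjusted p = 0.0338). This call was lost with arrays centred on the tested genes (-0.06, adjusted p = 0.2), with no filter on level (adjusted p = 0.0557), with cyclic loess (-0.087, adjusted p = 0.0576) and with both marker covariates. With the oligodendrocyte covariate the difference was -0.13 (adjusted p = 0.0698) and with the cortical one -0.11 (adjusted p = 0.208), no smaller than without them. The call held in only 3 of the 11 sets that leave out 1 array, those without WT replicate 1, WT replicate 6 or Rarb-null replicate 4 (highest adjusted p in the others 0.0853).

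**Figure D4:**
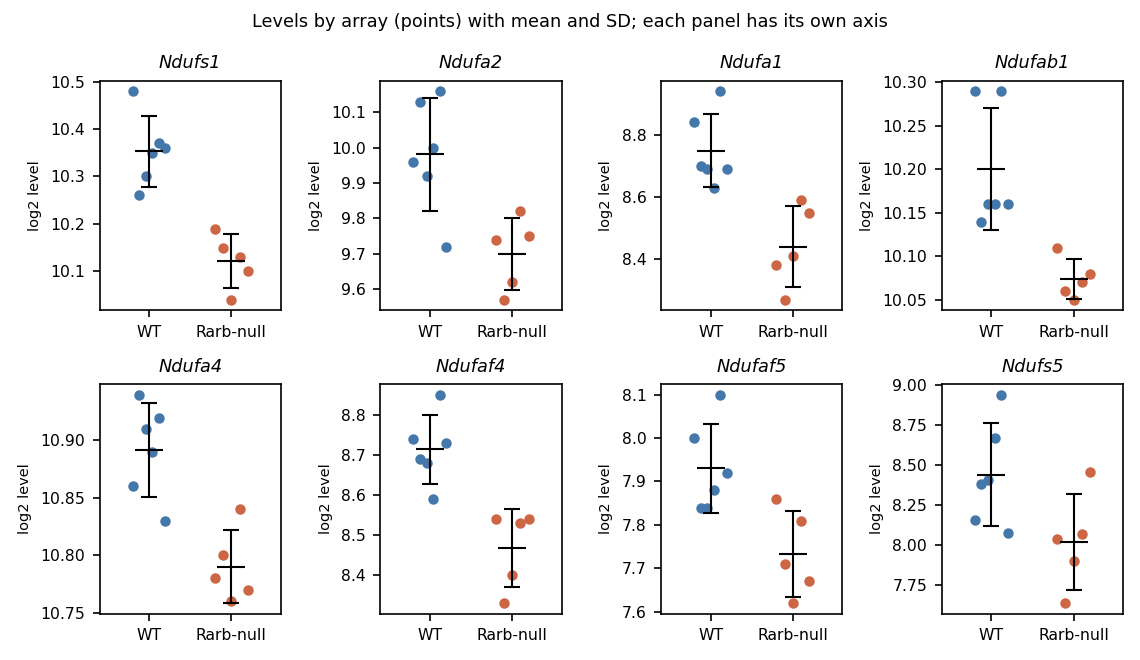
Log2 level in each array (points) with the mean and SD of the 6 WT and 5 Rarb-null arrays for the 7 Nduf genes that fell and for Ndufs5, each panel on its own vertical axis. The genotypes do not overlap for Ndufs1, Ndufa1, Ndufab1 and Ndufaf4 and overlap for the other panels.

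Assembly factors gave 2 falls among 7 Nduf-named genes, and all 7 differences were below 0 (median -0.088). As for the other roles, these counts stand against 12% of all genes tested that fell, 57.2% below 0 and a median of -0.017. Ndufaf4, a factor that works with Ndufaf3 early in assembly, read 8.74, 8.69, 8.68, 8.59, 8.85 and 8.73 in WT and 8.54, 8.33, 8.40, 8.53 and 8.54 in Rarb-null arrays. The groups did not overlap, and the difference was -0.24 (SE 0.050, limma Benjamini-Hochberg adjusted p = 0.00507), with the call kept whichever array was left out and with the cortical covariate (-0.35), but not with the oligodendrocyte covariate (-0.22, adjusted p = 0.0888). Its partner Ndufaf3 gave -0.02 (95% interval -0.09 to 0.06).

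Ndufaf5 encodes an enzyme that hydroxylates an arginine of Ndufs7 during assembly. It read 8.00, 7.84, 7.84, 7.88, 8.10 and 7.92 in WT and 7.86, 7.71, 7.62, 7.81 and 7.67 in Rarb-null arrays, with 1 Rarb-null array above 2 WT arrays. The difference was -0.20 (SE 0.055, limma Benjamini-Hochberg adjusted p = 0.0256). Its call ended when WT mouse 1, or Rarb-null mouse 2, 3 or 5, was left out (highest adjusted p 0.0711). It also ended with the oligodendrocyte covariate (-0.14, adjusted p = 0.281) and with the cortical one, where the difference was as large (-0.21, adjusted p = 0.195). Ndufaf1, which acts on membrane arm intermediates, had 9.61, 9.69 and 9.78 as lowest, median and highest WT value and 9.71, 9.46, 9.44, 9.67 and 9.47 in Rarb-null arrays (-0.15, SE 0.055, adjusted p = 0.0777). Of the Rarb-null arrays, 3 lay below the WT range. Ndufaf6 had 7.69, 7.78 and 7.88 in WT and 7.75, 7.65, 7.65, 7.76 and 7.68 in Rarb-null arrays (-0.09, SE 0.040, adjusted p = 0.138). Ndufaf7, a methyltransferase of early assembly, and Ndufaf2 gave -0.05 and -0.06.

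The number of falls in the whole Nduf list, 7 on the deposited scale, was 4 without Rarb-null replicate 2 or 3 and 10 without WT replicate 6. In these 3 fits the share of all genes called lower was 8.22%, 8.05% and 10.4%. With the mean cortical marker level of each array as a covariate the number of Nduf genes that fell was 3 (Ndufa1, Ndufa2 and Ndufaf4). With the mean oligodendrocyte marker level it was 2 (Ndufa2 and Ndufb2). In these 2 covariate fits 41 and 38 of the 42 differences were below 0, as against 38 without a covariate. The share of all genes below 0 was not counted in these fits. Their median over all genes also moved down, to -0.031 and -0.029, from -0.017 without a covariate. The share of all genes called lower was 5.11% and 4.99%.

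The promoters of the Nduf genes were searched for motifs of factors known from textbooks to act on respiratory chain genes, and for retinoic acid receptor motifs. Among the former is NRF-1, the product of Nrf1, known to drive many nuclear genes of the respiratory chain. RefSeq promoter windows of 300 bases (GRCm38.p6, 250 bases before the start and 50 from it) were found for 38 of the 43 genes, 40 windows in all. Ndufs1 was among the genes without a window. The NRF-1 motif, spelled GCGCATGCGC and identical on both strands, lay in 3 of the 40 (7.5%), those of Ndufaf4, Ndufaf5 and Ndufa11, against 0.971% of all 32851 windows. Assembly factors without the Nduf name were not looked at for this motif. Of these 3 genes, Ndufaf4 and Ndufaf5 fell and Ndufa11 did not. No match was found for Ndufa2, Ndufa1, Ndufab1 and Ndufa4, which also fell, or for Ndufs1, which had no window. Whether the motif goes with a fall was not tested. The 3 sites, picked for print after the matches were seen, are shown here. They are given with 10 bases on each side and the motif in capitals, read 5′ to 3′ on the strand of the gene.
Ndufaf4, chr4:24897960-24897989, plus strand: ccagatgtctGCGCATGCGCctgtgcggaa
Ndufaf5, chr2:140170652-140170681, plus strand: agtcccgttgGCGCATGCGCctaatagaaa
Ndufa11, chr17:56717692-56717721, plus strand: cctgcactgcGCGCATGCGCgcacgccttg

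Relative to the start, the motif ran from -113 to -104 in Ndufaf4, from -60 to -51 in Ndufa11 and from 17 to 26 in Ndufaf5. Ndufa11 carries the motif and did not pass the test (-0.06, adjusted p = 0.481), and Nrf1 itself gave 0.04 (SE 0.034, adjusted p = 0.432). The core GCATGCGC (8 bases, both strands), which overlaps the full motif, was in 5 of 40 windows (12.5%, against 2.71% of all), adding Ndufa6 and Ndufa8. An ETS motif (CCGGAAG, either strand) was in 5 windows (12.5%, against 8.86%), those of Ndufaf1, Ndufb6, Ndufb7, Ndufs3 and Ndufs8.

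For the receptor itself, direct repeats spaced by 5 bases, spelled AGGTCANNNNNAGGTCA, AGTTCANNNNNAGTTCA and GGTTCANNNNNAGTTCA on either strand, were in 0 of the 40 windows and in 3, 8 and 2 of all 32851 windows. Strings this rare would hardly be met in 40 windows, so the search cannot show whether receptor sites are absent. The motif TCAAGGTCA of the estrogen-related receptors, on either strand, was also in 0 of 40, against 0.423% of all. The 150 bases before the start of Ndufaf4 and of Ndufa1, the gene with the largest difference among those that fell, are set side by side with any NRF-1 motif in capitals.
Ndufaf4, chr4:24897933-24898082, plus strand: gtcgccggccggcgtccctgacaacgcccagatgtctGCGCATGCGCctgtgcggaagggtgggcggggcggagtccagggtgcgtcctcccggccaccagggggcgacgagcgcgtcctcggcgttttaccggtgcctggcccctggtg
Ndufa1, chrX:37191239-37191388, minus strand: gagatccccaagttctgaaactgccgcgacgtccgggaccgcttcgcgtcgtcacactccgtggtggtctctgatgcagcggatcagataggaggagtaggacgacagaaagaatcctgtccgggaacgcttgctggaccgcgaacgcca

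Assembly factors of complex I without the Nduf name moved in both directions. Of 9 tested, 2 fell and 1 rose (median -0.083), where 12% of all genes tested fell and 7.56% rose (median -0.017). Foxred1, an oxidoreductase-like factor needed for the late membrane arm, read 9.28 to 9.38 in WT (median of the 6 arrays 9.34) and 9.16, 9.08, 9.05, 9.09 and 9.00 in Rarb-null arrays, a difference of -0.25 (SE 0.035, limma Benjamini-Hochberg adjusted p = 0.000244) without overlap. Tmem186 fell by 0.19 (SE 0.041, adjusted p = 0.0076). Of the alternatives run, only the cortical covariate ended the call of Foxred1 (-0.18). Tmem186 missed the threshold with both covariates at differences no smaller than without them, -0.20 with the oligodendrocyte (adjusted p = 0.0624) and -0.21 with the cortical covariate (adjusted p = 0.0834). Dmac1, which acts on the distal membrane arm, read 10.60 to 10.70 in WT and 10.72 to 10.81 in Rarb-null arrays and rose by 0.13 (SE 0.031, adjusted p = 0.0092), a call lost with arrays centred on all probe sets and with the cortical covariate (highest adjusted p 0.112). Of the mitochondrially encoded subunits only ND3 had a probe set with 1 symbol, and it gave -0.007 (SE 0.049).

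Regulators of mitochondrial gene expression included 4 falls and 0 rises among 15 tested, with 13 differences below 0 (median -0.098); of all genes tested 12% fell, 7.56% rose and 57.2% were below 0. Ppargc1a, the transcriptional coactivator PGC-1 alpha that raises mitochondrial gene expression, read 9.73, 9.80, 9.64, 9.73, 9.82 and 9.73 in WT and 9.52, 9.49, 9.40, 9.48 and 9.55 in Rarb-null arrays. The groups did not overlap, and the difference of -0.26 (SE 0.038, limma Benjamini-Hochberg adjusted p = 0.000526) passed under all 23 alternative settings, both marker covariates included (highest adjusted p 0.0191). Tfb2m, the initiation factor of mitochondrial transcription, fell by 0.18 (SE 0.037, adjusted p = 0.00433), and Polg, the mitochondrial DNA polymerase, by 0.17 (SE 0.038, adjusted p = 0.00757). Tfam, which packages mitochondrial DNA, fell by 0.27 (SE 0.067, adjusted p = 0.0152) with 2 Rarb-null arrays and the lowest WT array at 7.49 to 2 decimals. With the cortical covariate these 3 calls were lost, at differences of -0.15 for Tfb2m (adjusted p = 0.161), -0.20 for Polg (adjusted p = 0.0681) and -0.30 for Tfam (adjusted p = 0.112). With the oligodendrocyte covariate Tfb2m gave -0.18 (adjusted p = 0.0542) and Tfam -0.26 (adjusted p = 0.122), which also missed the threshold at differences close to those without it.

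**Figure D5:**
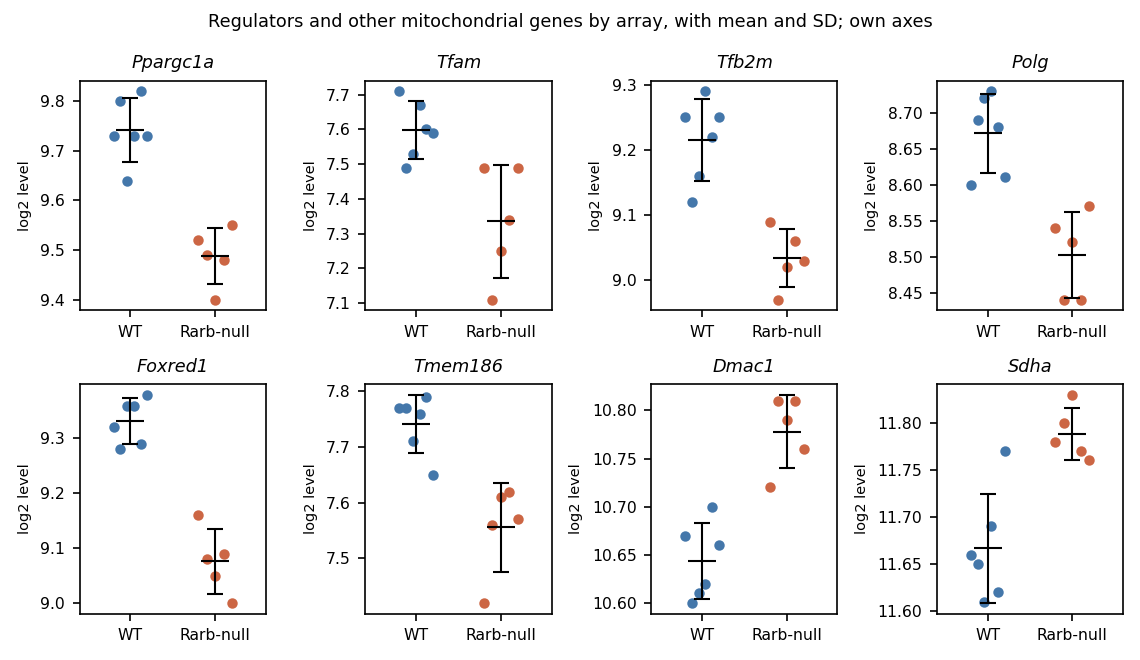
Log2 level in each array (points) with mean and SD of the 6 WT and 5 Rarb-null arrays for regulators of mitochondrial gene expression, complex I assembly factors without the Nduf name and Sdha, each panel on its own vertical axis. Ppargc1a, Tfb2m, Polg, Foxred1 and Tmem186 are lower in all Rarb-null arrays than in any WT array, and Dmac1 is higher in all of them.

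The other respiratory complexes gave small numbers in both directions, to be read against the 12% of all genes that fell and the 7.56% that rose. Complex II subunits and assembly factors had 2 falls and 1 rise among 8 (median -0.115), with the catalytic subunit gene Sdha at 0.12 (SE 0.034, adjusted p = 0.0259) and the assembly factor genes Sdhaf3 at -0.23 (SE 0.052, adjusted p = 0.00916) and Sdhaf4 at -0.17 (SE 0.046, adjusted p = 0.0189). With the mean of its probe sets Sdhaf4 gave -0.011 (adjusted p = 0.903). Sdha lost its call when WT mouse 5, or Rarb-null mouse 2 or 3, was left out (highest adjusted p 0.0708), with arrays centred on all probe sets and with both covariates (highest adjusted p 0.162), and Sdhaf3 with the oligodendrocyte covariate (adjusted p = 0.183). Complex III had 2 falls among 9, Uqcrh (-0.14) and Cyc1 (-0.11), with a median of -0.080, and complex V 2 among 16, Atp5e (-0.17) and Atp5pb (-0.13), with a median of -0.058. All 4 calls were lost with arrays centred on the tested genes. Of the 11 sets that leave out 1 array, Cyc1 kept its call in 8, Atp5pb in 5, Uqcrh in 3 and Atp5e in 2, and Atp5pb also lost it with the mean of its probe sets (-0.075, adjusted p = 0.0988). Complex IV had 0 falls and 2 rises among 12, Cox6a1 (0.17) and Cox4i2 (0.15), with a median of -0.029, and both rises were lost with arrays centred on all probe sets and with both covariates. Whether these lists differ from the Nduf genes was not tested.

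Variation between arrays of 1 genotype was described too. With each gene expressed as the deviation from its genotype mean, the median Pearson correlation over the 861 pairs of Nduf genes was 0.293 across the 11 arrays, and 76.4% of pairs were above 0. Over all pairs of genes tested the median was 0.076 and the share 56.7%. After centring on the tested genes these values were 0.197 and 66.3% for the Nduf genes and 0.029 and 52.6% for all genes. Some Nduf genes did not follow the mean of the others, among them Ndufs1 (-0.042), Ndufaf6 (-0.226) and Ndufa5 (-0.244). Pairs share the array and its overall scale, so this is a description. In WT replicate 5, 33 of the 42 genes lay above their WT mean, against 7 in WT replicate 4 and 9 in WT replicate 6. Among Rarb-null arrays 36 genes lay above the genotype mean in replicate 4 and 9 in replicate 2. Ndufa13 with Ndufs3 (0.91) and Ndufaf3 with Ndufc1 (0.895) were the closest pairs.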

How the data were processed

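Per the labels, the authors deposited log2 expression values after RMA; the log2 base was inferred from their range, and the RMA version, the annotation and the build are not given in the sources used here. Punches of 0.5 mm from 3 sections of 300 µm gave the 100 ng of RNA hybridised to each array, per the labels' protocols. The titles and the design text give 6 WT and 5 Rarb-null mice, and the extraction protocol gives the sizes the other way round. RMA normalises quantiles and compresses folds of dim probe sets; signal over background could not be measured.

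Of 35556 probe sets, 21789 had 1 symbol in the platform table, 1621 had several and 12146 were not in it. Symbols of 21698 probe sets were updated through Entrez identifiers with a RefSeq table (GRCm38.p6). Testing was limited to genes whose mean lay over the 40th percentile of all genes (log2 6.99), with limma 3.58.1 in R 4.3.3 (lmFit, eBayes, no covariates), with Benjamini-Hochberg adjustment and a threshold of 0.05. On simulated data for this comparison over 11963 genes, 76% of differences of 0.25 and 99% of those of 0.5 were recovered, with 11 false calls among 11763 unchanged genes. Recovery at smaller sizes, such as the Nduf median of -0.063, was not simulated. Far fewer genes were changed there than the 19.6% called in the data. The simulation therefore does not show how many Nduf differences were missed. Python 3.11.15 with matplotlib 3.10.9 served for plotting.

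Members and lists were chosen with earlier results of these data known. Named were Nduf genes called on any scale, up to 3 of smallest p per direction and role, further Nduf genes chosen after their values were seen to fill out each role, and up to 4 called genes of each other list. Alternatives were other filters, scalings, variance models, array weights, probe set means, a replicate block, marker covariates and leaving out each array. The motifs were taken from textbook knowledge, and the windows printed were chosen after the matches were seen.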

Additional observations from a re-analysis of the deposited data

Results flagged for a closer look

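In 2 of 46 sets of arrays of 1 genotype (23 named Nduf genes in 2 genotypes), a single array stood apart from the others by Dixon's test; about 1 in 20 sets would do so by chance. Ndufa12 read 9.56 in Rarb-null replicate 5 and 9.69 to 9.74 in the other Rarb-null arrays. Ndufs7 read 12.75 in the same array and 12.65 to 12.67 in the others. That array also had the highest mean of cortical excitatory neuron markers, 9.41; its part in these values was not tested.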

How the results depend on the processing

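Precision is limited by the number of arrays, and 23 alternative settings were fitted. The count of Nduf genes that fell, 7, became 17 with arrays centred on all probe sets, 12 with the replicate block, 2 with the oligodendrocyte and 3 with the cortical covariate, and 4 to 10 leaving out 1 array. It was 5 to 8 under the other settings, and 0 Nduf genes rose under any of the 23. Their median stayed below 0 under all of them (-0.109 with arrays centred on all probe sets to -0.023 with arrays centred on the genes tested; -0.075 to -0.051 leaving out 1 array). The labels do not say what replicate numbers share. Deviations of like-numbered arrays correlated at 0.257, 0.056, 0.255, 0.188 and 0.425, so pairing was not established for every pair, and only Rarb-null 3 and 4 correlated best with their own number; the paired fit in effect drops WT replicate 6. Over all genes, 1436 falls became 939 (centred on the genes tested), 3072 (centred on all probe sets), 597 (oligodendrocyte) and 611 (cortical), and 963 to 1566 leaving out 1 array. With the replicate block there were 1793 falls, 15% of the genes tested, and 1079 rises. The 905 rises, 7.56% of the genes tested, became 510 with the stricter filter, which tests fewer genes (6.39% of them rose). They became 1677, 525, 248 and 263 in the same order of scalings and covariates, and 584 to 1010 leaving out 1 array. No called gene named here changed sign. Among the 23 Nduf genes followed through the settings, 11 values of genes that were not called did. The remaining Nduf genes were not followed in that count, and some of them changed sign too. Ndufs6, for example, went from -0.0015 to 0.0385 with arrays centred on the genes tested. The causes were not tested.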
